A study of Mus musculus with 12 samples.

Results

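The chemokine ligand genes form the subject here: every gene of the deposited count table whose symbol follows the pattern of a CC (Ccl), CXC (Cxcl), CX3C (Cx3cl1) or XC (Xcl1) ligand. This gave 39 of 24421 genes, with 12 on chromosome 11, 11 on chromosome 5 and the rest on chromosomes 1, 4, 6, 7, 8 and 13. Bulk RNA sequencing was done on islets of Langerhans, the endocrine micro-organs of the mouse pancreas, which the labels describe as mostly beta cells. Knockout mice (Bmal1fl/flRIPCreERT/+) carry floxed Bmal1, a core clock gene, and an inducible Cre recombinase driven by the rat insulin promoter, so deletion is directed to beta cells. Control mice (Bmal1fl/fl) carry the floxed gene without the Cre. Each genotype has 2 libraries, A and B, from each of 3 conditions: citrate buffer (vehicle) at 24 h, a submaximal dose of streptozotocin (STZ, a beta-cell toxin) at 24 h, and STZ at 4 weeks (4 wk). All vehicle libraries are labelled 24 h, so a comparison of 4 wk with vehicle mixes treatment and time.

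Chemokines are small secreted proteins that guide leukocytes along gradients by binding G protein-coupled receptors. Inflammatory members are switched on by NF-kB and interferon signalling, and homeostatic members position lymphocytes in lymphoid organs and at epithelial surfaces. In islets, chemokines from beta cells, resident macrophages and stroma are known for recruiting leukocytes during injury and autoimmune diabetes.

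Total estimated counts were 101772241 to 127207523 per library, and levels are counts-per-million (CPM) values with TMM-scaled library sizes. One read pair was taken as 2.69 counts, inferred from the commonest covered length of low transcripts. A fold against a group at 0 is therefore given as an approximate lower bound, set by 3 read pairs (8.08 counts) over that group. Where a group held 1 to 3 read pairs, the ratio is given with its 95% interval, which covers counting error only. Arntl, the gene for BMAL1, had 17.8 and 19.9 CPM in knockout and 8.79 and 8.36 in control under vehicle, 8.88 and 9.43 against 11.2 and 10.8 at 24 h, and 11.3 and 11.6 against 20.6 and 20.4 at 4 wk. The whole transcript does not check the deleted part. All 10 listed beta-cell markers had counts in every group, which does not show that the libraries are mostly beta cells. They summed to 22727 and 25292 CPM in knockout at 24 h, against 119837 and 128649 in control. Acinar markers summed to 242173 and 254684 CPM in knockout at 24 h, against 125877 and 129792 in control. At 4 wk acinar markers summed to 114842 and 142984 CPM in knockout, against 93048 and 107380 in control. Whether libraries A and B are different animals is not stated, so the p-values reflect spread between libraries, which may be technical. In such bulk samples, fewer cells of a type and less RNA per cell cannot be told apart.

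The sequences before the transcription start were read for the members found in the RefSeq promoter table (build GRCm38.p6, which is mm10), where 27 of 39 members matched. The 250 bases before the start are shown 5′ to 3′ on the gene's strand for 6 members that carry the results: Cxcl1 and Cxcl10 with motif matches, Cxcl9, Cxcl12 and Cxcl13, which rose in knockout at 24 h and have interferon-induced, stromal and lymphoid roles, and Ccl28, which fell. Capitals mark matches to kB (GGANNTTCC), a narrow form of the letters bound by NF-kB, or ISRE (AAANNGAAA), the letters bound by interferon-regulated factors, searched on both strands. Other forms of the kB letters were not searched, so a window without a kB match can still hold them.
Cxcl1: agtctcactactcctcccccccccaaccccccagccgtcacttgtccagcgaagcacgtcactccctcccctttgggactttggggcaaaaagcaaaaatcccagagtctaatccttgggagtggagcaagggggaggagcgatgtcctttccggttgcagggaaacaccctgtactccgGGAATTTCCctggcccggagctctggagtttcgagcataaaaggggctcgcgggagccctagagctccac
Cxcl10: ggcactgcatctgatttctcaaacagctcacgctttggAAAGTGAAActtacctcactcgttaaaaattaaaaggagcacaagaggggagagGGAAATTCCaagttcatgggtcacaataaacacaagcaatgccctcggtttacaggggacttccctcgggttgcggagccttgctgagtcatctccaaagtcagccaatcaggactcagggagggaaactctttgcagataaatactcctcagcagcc
Cxcl9: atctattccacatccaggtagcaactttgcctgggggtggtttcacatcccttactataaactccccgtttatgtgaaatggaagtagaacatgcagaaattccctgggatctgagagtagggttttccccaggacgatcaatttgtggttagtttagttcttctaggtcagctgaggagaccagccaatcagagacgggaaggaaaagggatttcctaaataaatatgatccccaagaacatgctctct
Cxcl12: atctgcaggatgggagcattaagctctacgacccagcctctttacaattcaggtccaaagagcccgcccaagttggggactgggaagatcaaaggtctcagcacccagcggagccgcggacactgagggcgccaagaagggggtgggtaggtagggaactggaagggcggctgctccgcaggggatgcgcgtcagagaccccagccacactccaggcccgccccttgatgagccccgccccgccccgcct
Cxcl13: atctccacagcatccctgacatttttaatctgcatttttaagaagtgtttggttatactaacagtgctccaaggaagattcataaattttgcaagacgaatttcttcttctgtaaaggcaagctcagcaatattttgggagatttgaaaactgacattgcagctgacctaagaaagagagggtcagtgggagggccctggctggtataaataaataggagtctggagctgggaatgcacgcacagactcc
Ccl28: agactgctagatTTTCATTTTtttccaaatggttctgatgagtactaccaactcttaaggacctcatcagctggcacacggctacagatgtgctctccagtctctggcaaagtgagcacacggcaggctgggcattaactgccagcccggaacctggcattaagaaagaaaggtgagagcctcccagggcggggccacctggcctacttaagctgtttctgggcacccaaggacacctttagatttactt
These windows are chr5:90890995-90891244 (plus strand) for Cxcl1, chr5:92348890-92349139 (minus) for Cxcl10, chr5:92328080-92328329 (minus) for Cxcl9, chr6:117168285-117168534 (plus) for Cxcl12, chr5:95956689-95956938 (plus) for Cxcl13 and chr13:119623569-119623818 (plus) for Ccl28. Counted from the start site, the first base of the kB match is at -70 in Cxcl1 and -158 in Cxcl10. The first base of the ISRE match is at -212 in Cxcl10 and -238 in Ccl28, where the match is on the opposite strand. Of the 27 members, which have 33 promoters, kB letters of this form lay in 6 (Ccl1, Ccl12, Cxcl1, Cxcl2, Cxcl3 and Cxcl10), against 3.59% of 32851 promoters. ISRE letters lay in 5 (Ccl19, Ccl27b, Ccl28, Cxcl10 and Cxcl14), against 9.37% of promoters. The E-box CACGTG, the letters bound by CLOCK:BMAL1, lay in 1 member, Cxcl3, against 6.02% of promoters. The motifs do not overlap in the windows shown, and a match describes letters only.

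Chemokine transcripts were most abundant in knockout islets at 24 h after STZ. The family summed to 50.2 and 48.0 CPM in knockout and 69.2 and 73.3 CPM in control under vehicle. At 24 h after STZ the sums were 651.2 and 660.9 CPM in knockout, against 103.1 and 108.1 CPM in control. By 4 wk the sums were 314.6 and 306.9 CPM in knockout, against 74.9 and 71.5 CPM in control. Libraries A and B of each group lay far closer to each other than the genotypes did after STZ. Of 37 members with any count, 26 had their highest mean in knockout at 24 h, 8 in knockout at 4 wk, 2 in control at 24 h and 1 in control at 4 wk. A mean of at least 2 CPM was reached by 5 members in knockout and 6 in control under vehicle, by 23 in knockout and 9 in control at 24 h, and by 14 in knockout and 6 in control at 4 wk. Neither set of counts was made over all genes, so they do not show whether the family differs from other genes. Ccl1 and Ccl26 had 0 counts everywhere, and Cxcl17 and Cxcl3 stayed under the low-count filter. Of the 35 members tested, 6 (Ccl17, Ccl20, Ccl22, Cxcl11, Cxcl15 and Xcl1) passed that filter only through knockout STZ libraries.

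**Figure D1:**
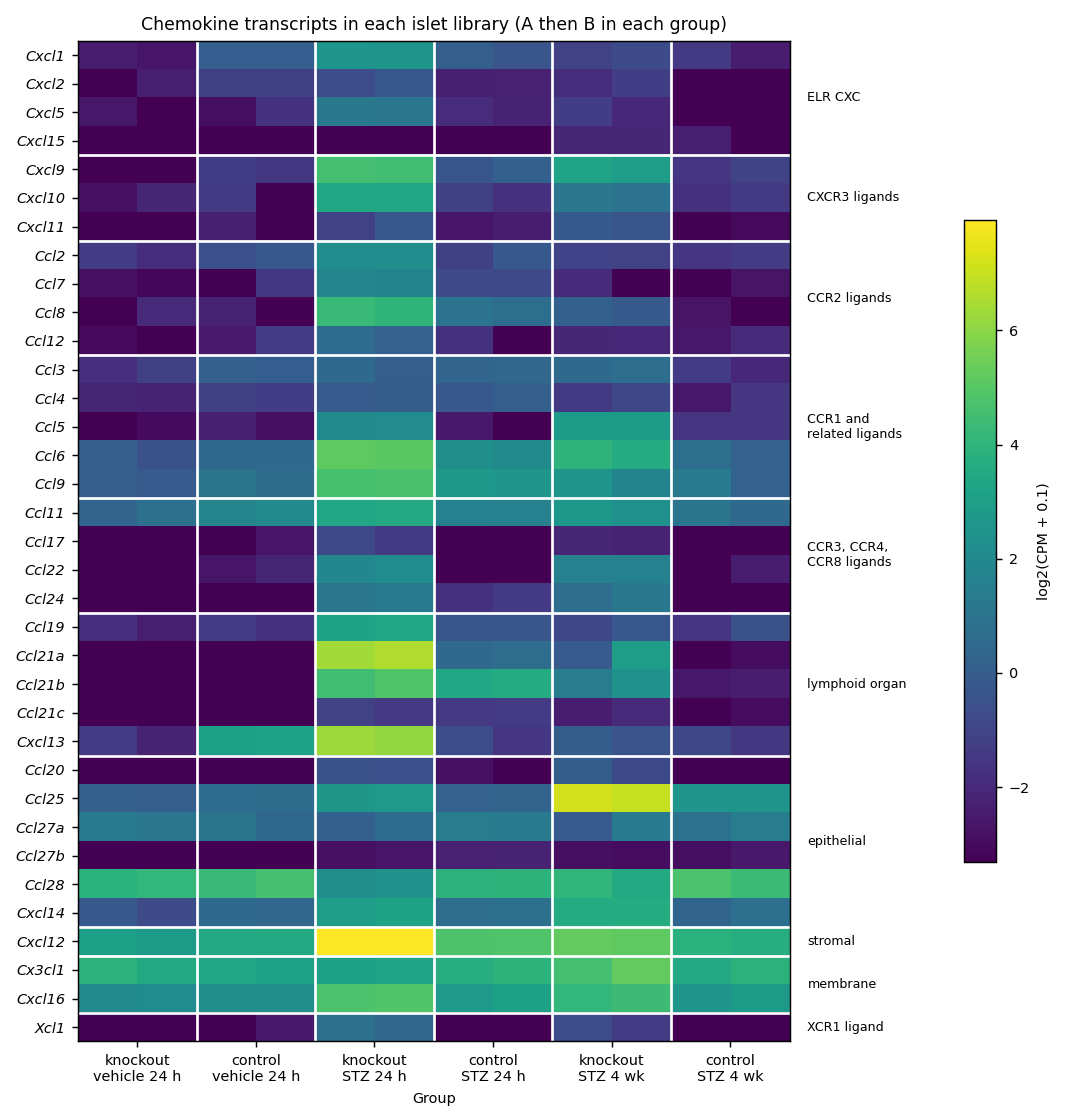
Heat map of log2(CPM + 0.1) for the 35 tested members (rows, grouped by role) in the 12 libraries (columns, knockout left of control within each condition). The 2 knockout libraries at 24 h after STZ, whose members sum to 651.2 and 660.9 CPM, are the brightest columns.

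Per kilobase of transcript, the order of members changed with condition. Ccl28 (4.27 CPM per kb) and Cx3cl1 (4.22) led in knockout under vehicle and overlapped each other between libraries. Control vehicle islets were led by Cxcl13 at 7.09 CPM per kb, above Ccl28 at 5.9. In knockout at 24 h, Cxcl12 (104.8 CPM per kb) and Ccl21a (103.4) overlapped, and Cxcl13 followed at 63.3. Control islets at 24 h had Ccl21b first at 13.8 CPM per kb and Cxcl12 next at 10.1. Ccl25 stood first in knockout at 4 wk with 126.2 CPM per kb, 55.7% of the family, with Ccl5 (12.9) and Cxcl12 (12.6) far below it. Control islets at 4 wk were led by Ccl28 at 6.29 CPM per kb and Ccl25 at 5.34.

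The vehicle comparison asks whether chemokine transcripts differ by genotype in uninjured islets. In knockout, 8 of 35 tested members fell and 0 rose: Cxcl13, Cxcl1, Cxcl9, Ccl3, Ccl11, Cxcl14, Ccl25 and Cxcl12, with 7.68% of all 17411 genes tested lower and 1.96% higher. At an unadjusted p under 0.05, 0 members were higher, and DESeq2's Wald test called 0 higher. Calls use edgeR's quasi-likelihood test with Benjamini-Hochberg adjustment over all genes and a threshold of 0.05, here and throughout. The median member stood at log2 -1.18 with groups at 0 counts taken at their bound, beside 0 for all genes. Scaled to macrophage markers, 4 members were lower and Cx3cl1 was higher (the median of all genes moved by 0.31), and the counts were 5 and 1 under total-count scaling (median 0.53). Scaled to pan-endocrine genes, 16 were lower and 0 higher (median -0.39). A fit of only these 4 libraries called 3, and leaving out control A, control B, knockout A or knockout B left 4, 3, 5 or 6 calls. Several other tissues' transcripts moved with the genotype under vehicle, with acinar markers at 51829 and 45017 CPM in knockout and 228579 and 213420 in control. The lymph node stroma list holds Glycam1, Madcam1, Cr2, Fcer2a, Cxcr5 and Tnfsf11, not all of them stromal, since Cxcr5 is the B-cell receptor of Cxcl13. Its markers summed to 0.0361 and 0.0735 CPM in knockout, with 4 of 6 at 0, against 6.32 and 7.49 CPM in control. Their part in these calls was not tested.

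The 24 h comparison addresses the genotype difference soon after injury. In knockout, 23 members rose and 1, Ccl28, fell, against 23.7% higher and 19.4% lower among all genes tested. Of the 29 members that passed the filter through other libraries too, 19 rose and 1 fell. Those with the highest levels per kilobase were Cxcl12, Ccl21a, Cxcl13, Ccl8, Ccl21b and Ccl6, which span stromal, lymphoid and myeloid-attracting roles. The median member stood at log2 2.94 with bounds, beside 0 for all genes. Scaled to macrophage markers, which moves the median of all genes to -2.92, 7 were higher (Ccl21a, Ccl22, Ccl5, Cxcl10, Cxcl13, Cxcl9 and Xcl1) and 10 were lower. Of the members with values per library, Ccl11, Ccl21b, Ccl25, Ccl7, Ccl9, Cxcl1, Cxcl14 and Cxcl16 changed sign under that scaling, from log2 -0.13 for Cxcl1 to -1.77 for Ccl21b. Scaled to pan-endocrine genes (median 1.66), 30 were higher and 0 lower, and Ccl28 stood at 0.09.

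**Figure D2:**
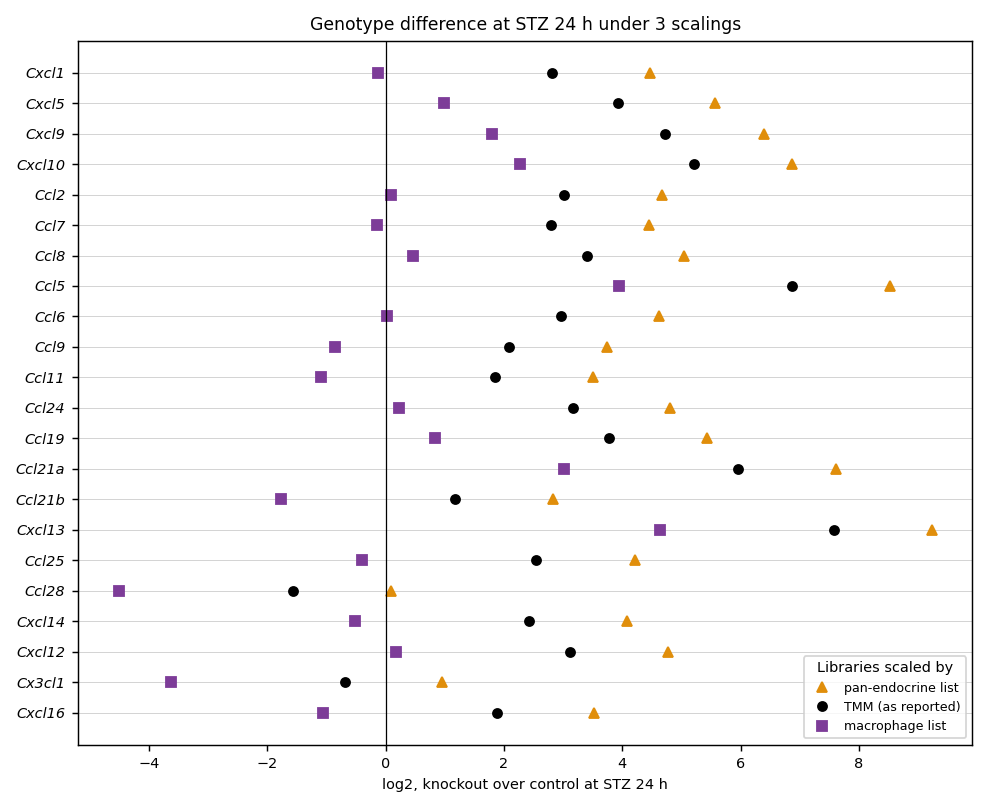
Log2 fold change, knockout over control, at 24 h after STZ for 22 members under 3 scalings: pan-endocrine genes, TMM over all genes, and macrophage markers. Each member is highest under pan-endocrine and lowest under macrophage scaling, where Ccl28 and Cx3cl1, already below 0 under TMM, are joined there by Cxcl1, Ccl7, Ccl25, Cxcl14, Ccl9, Cxcl16, Ccl11 and Ccl21b (Ccl22, with a control group at 0 counts, is left out).

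The 4 wk comparison asks whether the difference lasts. In knockout, 22 members rose and 1, Ccl28, fell, against 19.9% higher and 7.89% lower among all genes. Of the 29 members that passed the filter through other libraries too, 18 rose and 1 fell. Ccl25 had the highest level per kilobase, with Ccl5, Cxcl12, Ccl6 and Cx3cl1 after it. The median member stood at log2 2.73 with bounds, beside 0.01 for all genes. Scaled to macrophage markers (median -1.73), 15 were higher and 5 lower. Of the members with values per library, Cxcl12, Cx3cl1, Cxcl16, Ccl9, Ccl2 and Ccl19 changed sign, at log2 -0.33, -0.54, -0.14, -0.31, -1.31 and -1.24, and so did Cxcl1, Cxcl13 and Ccl7, at -0.46, -0.59 and -0.11, which were called under neither scaling. Scaled to pan-endocrine genes (median 0.55), 27 were higher and 0 lower.

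**Figure D3:**
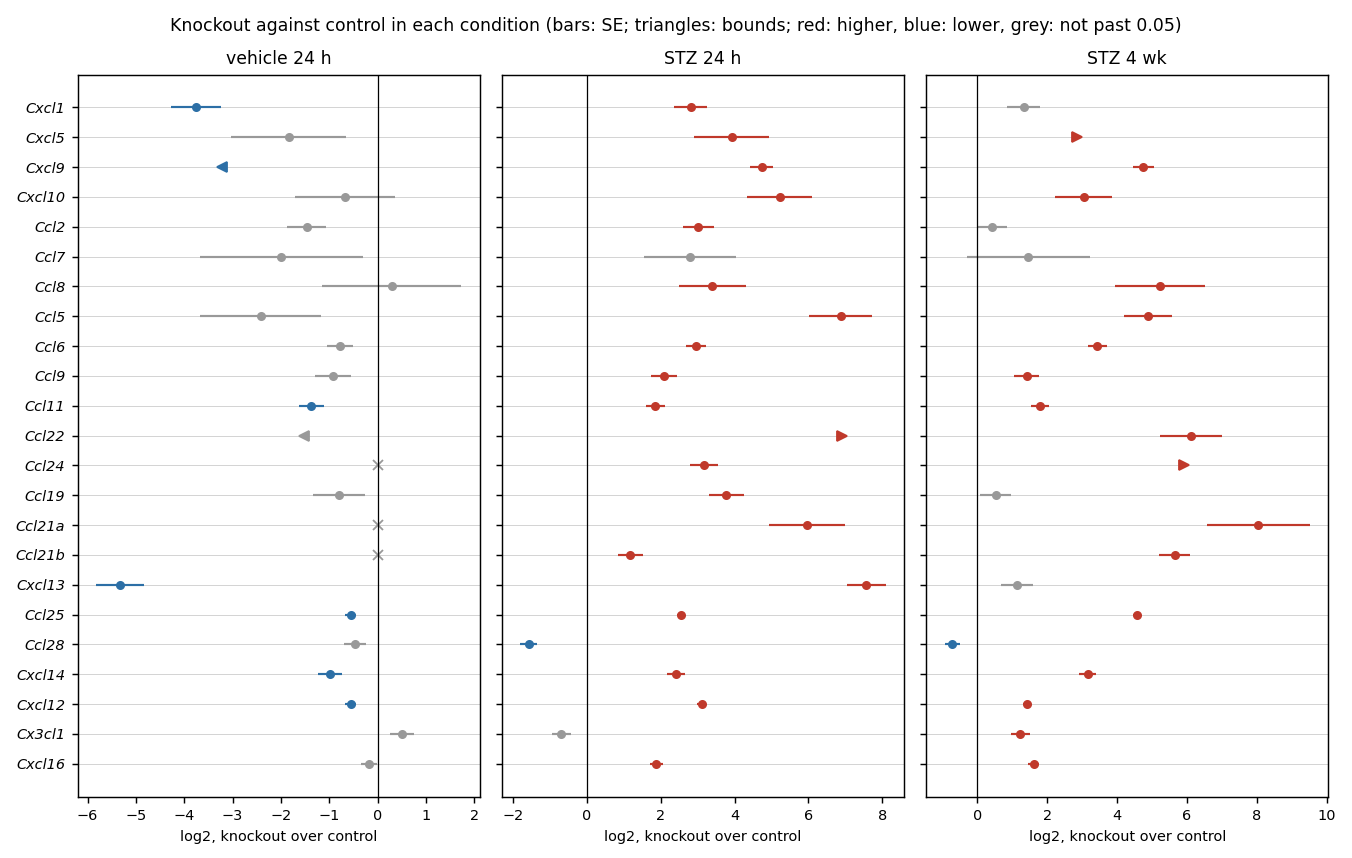
Log2 fold change, knockout over control, of the 23 members whose values are given per library, in 3 panels for vehicle, STZ 24 h and STZ 4 wk. Points are fitted values with bars of 1 SE, triangles are lower bounds for groups at 0 counts, crosses mark members with both groups at or under the floor, and red, blue and grey mark higher, lower and not past an adjusted p of 0.05. Most points are grey or blue under vehicle and red after STZ, with Ccl28 blue in both STZ panels.

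Of the neutrophil-attracting CXC ligands, most of which act on Cxcr2, 2 of 4 tested rose at 24 h and 2 of 4 at 4 wk. Among all genes 23.7% and 19.9% were higher. The first described is Cxcl1 (chromosome 5, 90891245 to 90893115 in mm10, the build of all positions given here). Cxcl1 under vehicle had 0.0793 and 0.0572 CPM in knockout, against 0.946 and 0.922 CPM in control. Cxcl1 at 24 h had 5.9 and 5.6 CPM in knockout, against 0.956 and 0.681 CPM in control. Cxcl1 at 4 wk had 0.367 and 0.5 CPM in knockout, against 0.271 and 0.0801 CPM in control. The genotypes did not overlap in any condition, and their order under vehicle was opposite to that after STZ. Cxcl1 fell under vehicle (log2 -3.75, SE 0.52, adjusted p = 0.00199), rose at 24 h (log2 2.81, SE 0.44, adjusted p = 0.000984) and did not pass at 4 wk (log2 1.32, adjusted p = 0.0718). Cxcl5 (chromosome 5, 90759298 to 90761625) had 0.0649 and 0 CPM in knockout and 0.0326 and 0.216 CPM in control under vehicle. At 24 h, Cxcl5 had 2.23 and 2.01 CPM in knockout, against 0.167 and 0.112 CPM in control. At 4 wk, Cxcl5 had 0.312 and 0.148 CPM in knockout, against 0 in both control libraries. Cxcl5 rose at 24 h (log2 3.92, SE 1.02, adjusted p = 0.0165) and at 4 wk, at least 7.17-fold (adjusted p = 0.0211). Its 24 h call was lost without any single one of the 4 libraries (adjusted p 0.0618 to 0.108), and its 4 wk call without control A (0.0734), control B (0.0752) or knockout A (0.0511). Of the other members, Cxcl2, Cxcl3 and Cxcl15 stayed at or under 0.765 CPM in every library. The other member that rose at 4 wk was Cxcl2, at 0.174 and 0.32 CPM in knockout, against 0 in both control libraries. Its 4 wk call was lost without control A or control B. Neutrophil markers moved with this group at 24 h, 21.1 and 19.8 CPM in knockout with Camp at 0, against 2.26 and 2.11 CPM in control with Elane, Mpo and Camp at 0, and their part in the result was not tested.

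The interferon-induced ligands Cxcl9, Cxcl10 and Cxcl11 attract activated T cells through Cxcr3. At 24 h 2 of 3 rose and at 4 wk 3 of 3, beside 23.7% and 19.9% of all genes higher. Of these, Cxcl11 passed the low-count filter only through knockout STZ libraries. Cxcl9 (chromosome 5, 92321331 to 92328079) was at 0 in both knockout libraries under vehicle, against 0.326 and 0.25 CPM in control. At 24 h, Cxcl9 had 23.5 and 22.3 CPM in knockout, against 0.71 and 1.01 CPM in control. At 4 wk, Cxcl9 had 9.47 and 7.87 CPM in knockout, against 0.246 and 0.393 CPM in control. Both knockout libraries lay below both control libraries under vehicle and above them after STZ. Cxcl9 fell under vehicle, at least 9.34-fold (adjusted p = 0.000344), and rose at 24 h (log2 4.73, SE 0.3, adjusted p = 1.57e-05) and 4 wk (log2 4.75, SE 0.3, adjusted p = 2.23e-05). Cxcl10 (chromosome 5, 92346639 to 92348889), whose exons overlap those of Art3 on the other strand in 12% of their bases, had 0.0433 and 0.131 CPM in knockout under vehicle, against 0.272 and 0 CPM in control. At 24 h, Cxcl10 had 10.2 and 10.3 CPM in knockout, against 0.342 and 0.208 CPM in control. At 4 wk, Cxcl10 had 2.11 and 1.87 CPM in knockout, against 0.205 and 0.277 CPM in control. Cxcl10 did not pass under vehicle, where the genotypes overlapped, and rose at 24 h (log2 5.22, SE 0.87, adjusted p = 0.00139) and 4 wk (log2 3.04, SE 0.81, adjusted p = 0.0231). The 4 wk call of Cxcl10 was lost without control A (adjusted p = 0.114) or control B (0.0805). Cxcl11 stayed at or under 0.816 CPM, and passed at 4 wk (ratio 64.1, 95% interval 12.3 to 2849, adjusted p = 0.0144), a call lost without control A (adjusted p = 0.0689).

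The Ccr2 ligands recruit monocytes, and 2 of 4 rose at 24 h and 1 of 4 at 4 wk. Among all genes 23.7% and 19.9% were higher, so the 4 wk count is near that share. Ccl8 (chromosome 11, 82115185 to 82116799) had 0 and 0.155 CPM in knockout under vehicle, against 0.12 and 0 CPM in control. At 24 h, Ccl8 had 20.0 and 16.5 CPM in knockout, against 1.86 and 1.6 CPM in control. At 4 wk, Ccl8 had 1.02 and 0.812 CPM in knockout, against 0.0493 and 0 CPM in control. The genotypes overlapped under vehicle and not after STZ. Ccl8 rose at 24 h (log2 3.4, SE 0.91, adjusted p = 0.0153), a call lost without any single one of the 4 libraries (adjusted p 0.0503 to 0.104), and at 4 wk (ratio 39.2, 95% interval 11.7 to 367.2, adjusted p = 0.0154), a call lost without control B (0.0792). Ccl2 (chromosome 11, 82035577 to 82037452), the main ligand of Ccr2, had 0.296 and 0.18 CPM in knockout under vehicle, against 0.566 and 0.762 CPM in control. At 24 h, Ccl2 had 4.51 and 4.53 CPM in knockout, against 0.342 and 0.769 CPM in control. At 4 wk, Ccl2 had 0.376 and 0.359 CPM in knockout, against 0.246 and 0.299 CPM in control. Ccl2 rose at 24 h only among these comparisons (log2 3.02, SE 0.41, adjusted p = 0.000397), with adjusted p = 0.0623 under vehicle (log2 -1.47) and 0.507 at 4 wk (log2 0.43). Ccl7 (chromosome 11, 82045712 to 82047523) had 3.43 and 3.24 CPM in knockout at 24 h, against 0.491 and 0.465 CPM in control, and 0 to 0.25 CPM in the other 8 libraries. Despite the gap, Ccl7 did not pass at 24 h (log2 2.8, SE 1.24, adjusted p = 0.102). Ccl12 reached at most 1.44 CPM and did not pass between genotypes (adjusted p = 0.0534 at 24 h).

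The ligands of Ccr1 and related receptors attract monocytes, macrophages and T cells, and Ccl6 and Ccl9 are macrophage-derived rodent members. Of 5 tested, 3 rose at 24 h and 4 at 4 wk, beside 23.7% and 19.9% of all genes higher. Ccl6 (chromosome 11, 83587886 to 83593087) had 0.952 and 0.588 CPM in knockout under vehicle, against 1.33 and 1.32 CPM in control. At 24 h, Ccl6 had 34.8 and 33.7 CPM in knockout, against 4.74 and 4.03 CPM in control. At 4 wk, Ccl6 had 16.1 and 12.3 CPM in knockout, against 1.58 and 1.06 CPM in control. Ccl6 rose at 24 h (log2 2.96, SE 0.27, adjusted p = 4.99e-05) and 4 wk (log2 3.43, SE 0.28, adjusted p = 3.64e-05) and did not pass under vehicle (adjusted p = 0.142). Ccl9 (chromosome 11, 83572917 to 83578636) had 0.967 and 0.834 CPM in knockout under vehicle, against 1.93 and 1.5 CPM in control. At 24 h, Ccl9 had 25.1 and 25.9 CPM in knockout, against 6.3 and 5.73 CPM in control. At 4 wk, Ccl9 had 5.61 and 3.33 CPM in knockout, against 2.29 and 1.07 CPM in control. Ccl9 rose at 24 h (log2 2.09, SE 0.36, adjusted p = 0.00164) and 4 wk (log2 1.41, SE 0.36, adjusted p = 0.0184), where the call was lost without control B (0.0719) or knockout A (0.0825). Ccl5 (chromosome 11, 83525779 to 83530518), the T-cell ligand RANTES, had 0 and 0.0245 CPM in knockout under vehicle, against 0.0979 and 0.0341 CPM in control. At 24 h, Ccl5 had 3.92 and 4.25 CPM in knockout, against 0.0702 and 0 CPM in control. At 4 wk, Ccl5 had 6.85 and 6.83 CPM in knockout, against 0.222 and 0.24 CPM in control. Ccl5 was among the members with a higher level in knockout at 4 wk than at 24 h, and it rose at 24 h (ratio 122.2, 95% interval 41.0 to 590.4, adjusted p = 0.000233) and 4 wk (log2 4.88, SE 0.69, adjusted p = 0.000855). Ccl3 and Ccl4 stayed at or under 1.53 CPM and did not pass at 24 h (adjusted p = 0.922 and 0.958). Ccl3 fell under vehicle (log2 -1.88, adjusted p = 0.0179), a call lost without control A, control B or knockout A (adjusted p up to 0.107), and rose at 4 wk (log2 2.73, adjusted p = 0.00112). Macrophage markers, all 12 detected in every group, summed to 1636 and 1617 CPM in knockout at 24 h against 200.8 and 197.6 in control, and to 348.1 and 407.3 at 4 wk against 113.7 and 123.5, and their part in the result was not tested.

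The ligands of Ccr3, Ccr4 and Ccr8 attract eosinophils and type 2 and regulatory T cells. At 24 h 4 of 4 tested rose and at 4 wk 3 of 4, beside 23.7% and 19.9% of all genes higher. Of these 4, Ccl17 and Ccl22 passed the low-count filter only through knockout STZ libraries, where they are high, so the counts do not bear on the group as a whole. Ccl11, eotaxin (chromosome 11, 82057832 to 82062955), had 1.16 and 1.69 CPM in knockout under vehicle, against 3.34 and 4.02 CPM in control. At 24 h, Ccl11 had 10.5 and 10.9 CPM in knockout, against 2.99 and 2.92 CPM in control. At 4 wk, Ccl11 had 6.39 and 4.95 CPM in knockout, against 1.94 and 1.32 CPM in control. Ccl11 fell under vehicle (log2 -1.37, SE 0.26, adjusted p = 0.00985), a call lost without control B (0.0675) or knockout A (0.0696), and rose at 24 h (log2 1.85, SE 0.26, adjusted p = 0.000471) and 4 wk (log2 1.8, SE 0.26, adjusted p = 0.000897). Ccl22 (chromosome 8, 94745684 to 94751388), a Ccr4 ligand of dendritic cells and macrophages, was at 0 in both knockout libraries under vehicle, against 0.0544 and 0.125 CPM in control. At 24 h, Ccl22 had 3.7 and 4.4 CPM in knockout, against 0 in both control libraries. At 4 wk, Ccl22 had 2.89 and 3.02 CPM in knockout, against 0 and 0.0801 CPM in control. Ccl22 rose at least 120.1-fold at 24 h (adjusted p = 0.000612) and at 4 wk (log2 6.11, SE 0.88, adjusted p = 0.00242). Ccl24 (chromosome 5, 135569937 to 135573043), eotaxin-2, had 0 counts in all 4 vehicle libraries. At 24 h, Ccl24 had 2.05 and 2.35 CPM in knockout, against 0.21 and 0.28 CPM in control. At 4 wk, Ccl24 had 1.53 and 2.19 CPM in knockout, against 0 in both control libraries. Ccl24 rose at 24 h (log2 3.16, SE 0.38, adjusted p = 0.0012) and at least 60.5-fold at 4 wk (adjusted p = 0.000163). Ccl17, the other Ccr4 ligand, reached at most 0.463 CPM and rose at 24 h, at least 10.8-fold (adjusted p = 0.0177), a call lost without any single one of the 4 libraries (0.0529 to 0.0739).

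Of the 5 chemokines of lymphoid organs, 4 rose at 24 h and 2 at 4 wk, beside 23.7% and 19.9% of all genes higher. Cxcl13 (chromosome 5, 95956939 to 95961068), which draws B cells into follicles through Cxcr5, had 0.289 and 0.114 CPM in knockout under vehicle, against 7.97 and 8.51 CPM in control. At 24 h, Cxcl13 had 78.8 and 68.4 CPM in knockout, against 0.535 and 0.24 CPM in control. At 4 wk, Cxcl13 had 0.899 and 0.633 CPM in knockout, against 0.444 and 0.255 CPM in control. Only knockout at 24 h and control under vehicle stood above 1 CPM. Cxcl13 fell under vehicle (log2 -5.33, SE 0.49, adjusted p = 0.000181), rose at 24 h (log2 7.57, SE 0.52, adjusted p = 1.09e-05) and did not pass at 4 wk (log2 1.13, adjusted p = 0.0998). Ccl19 (chromosome 4, 42754525 to 42756518), which guides T cells and dendritic cells through Ccr7, had 0.188 and 0.0899 CPM in knockout under vehicle, against 0.283 and 0.205 CPM in control. At 24 h, Ccl19 had 9.08 and 9.68 CPM in knockout, against 0.693 and 0.673 CPM in control. At 4 wk, Ccl19 had 0.45 and 0.742 CPM in knockout, against 0.238 and 0.59 CPM in control. Ccl19 rose at 24 h (log2 3.78, SE 0.47, adjusted p = 0.000254) and did not pass at 4 wk (log2 0.52, adjusted p = 0.455), where the genotypes overlapped.

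Ccl21a, Ccl21b and Ccl21c, the other Ccr7 ligands, are near-identical copies between which reads can be split, so their separate values are uncertain. As background, Ccl21a encodes the form of lymphoid organs and the other copies the form of lymphatic vessels. None of the 3 had a count under vehicle. Ccl21a (chromosome 4, 42772860 to 42773991) at 24 h had 83.9 and 95.7 CPM in knockout, against 1.35 and 1.53 CPM in control. Ccl21b at 24 h had 22.4 and 29.3 CPM in knockout, against 10.8 and 12.1 CPM in control. The copies together had 106.6 and 125.2 CPM in knockout, against 12.4 and 13.9 CPM in control, and Ccl21a made up 78.7% and 76.4% of that sum in knockout and 10.9% and 11.0% in control. Both groups held Ccl21 reads at 24 h, with different shares of the copies. Ccl21a rose at 24 h (log2 5.96, SE 1.04, adjusted p = 0.00377), and Ccl21b rose (log2 1.17, SE 0.34, adjusted p = 0.0291), a call lost without any single one of the 4 libraries (adjusted p 0.0552 to 0.142). Ccl21a at 4 wk had 0.826 and 7.81 CPM in knockout, against 0 and 0.0291 CPM in control. Ccl21b at 4 wk had 2.58 and 5.21 CPM in knockout, against 0.0657 and 0.0874 CPM in control. Knockout A and B differed by 3.24 on the log2 scale for Ccl21a, the widest gap between replicates of any member with at least 25 counts in both. Ccl21a rose at 4 wk (ratio 297.8, 95% interval 79.0 to 17527, adjusted p = 0.00717), a call lost without control A (0.0511), and so did Ccl21b (log2 5.64, SE 0.45, adjusted p = 0.000162). Ccl21c stayed at or under 0.36 CPM.

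The lymph node stroma list, which includes Cxcr5, moved with the lymphoid chemokines, and its sum is not of stroma alone. It summed to 179.2 and 171.1 CPM in knockout at 24 h, with all 6 markers detected and Glycam1 at 42.2 and 36.5 CPM. Of this sum, Cr2 held 64.5 and 58.9 CPM, Fcer2a 36.5 and 37.9, and Cxcr5 19.9 and 21.0. Control held 0.158 and 0.104 CPM at 24 h, with Glycam1, Madcam1 and Cxcr5 at 0. At 4 wk the list summed to 4.0 and 3.68 CPM in knockout, against 0.197 and 0.218 CPM in control with Glycam1 at 0. Lymphocyte markers summed to 295.1 and 290.4 CPM in knockout at 24 h, against 3.77 and 4.24 CPM in control with Cd3d and Cd3e at 0. Lymphatic endothelial markers summed to 260.9 and 268.3 CPM in knockout at 24 h, against 76.2 and 77.1 CPM in control. The part of these cells in the Cxcl13, Ccl19 and Ccl21 values was not tested. This holds also for control islets at 24 h, where Ccl21b stood at 10.8 and 12.1 CPM.

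Of 6 epithelial and mucosal chemokines tested, 3 rose and 1 fell at both 24 h and 4 wk. Among all genes 23.7% and 19.9% were higher and 19.4% and 7.89% lower, so the 1 lower at 24 h is near that share. Of those that rose, 1, Ccl20, passed the low-count filter only through knockout STZ libraries. Ccl25 (chromosome 8, 4325210 to 4360020), known from small intestine and thymus and acting on Ccr9, overlaps Elavl1 on the other strand in 6.2% of its exon bases and had 1.0 and 0.956 CPM in knockout under vehicle, against 1.44 and 1.46 CPM in control. At 24 h, Ccl25 had 6.08 and 6.49 CPM in knockout, against 1.05 and 1.09 CPM in control. At 4 wk, Ccl25 had 143.1 and 123.8 CPM in knockout, against 5.67 and 5.64 CPM in control. The genotypes did not overlap in any condition, and knockout at 4 wk held the highest level of Ccl25. Ccl25 fell under vehicle (log2 -0.56, SE 0.12, adjusted p = 0.0148), a call lost without any single one of the 4 libraries (adjusted p 0.0542 to 0.093), and rose at 24 h (log2 2.55, SE 0.11, adjusted p = 1.68e-06) and 4 wk (log2 4.56, SE 0.12, adjusted p = 2.27e-07). Intestine markers at 4 wk summed to 4936 and 4704 CPM in knockout, against 183.1 and 196.5 CPM in control. Among them Fabp2, the intestinal fatty acid-binding protein gene, had 3049 and 2068 CPM in knockout, against 59.5 and 38.0 CPM in control, and Defa24, a Paneth cell defensin gene, had 51.4 and 41.0 CPM in knockout, against 0.00821 and 0 CPM in control, which is under the floor. Their part in the Ccl25 result was not tested. Cxcl14 (chromosome 13, 56288643 to 56296551), an epithelial and stromal chemokine, had 0.779 and 0.515 CPM in knockout under vehicle, against 1.35 and 1.22 CPM in control. At 24 h, Cxcl14 had 7.89 and 9.18 CPM in knockout, against 1.53 and 1.66 CPM in control. At 4 wk, Cxcl14 had 12.1 and 12.6 CPM in knockout, against 1.14 and 1.64 CPM in control. Cxcl14 fell under vehicle (log2 -0.98, SE 0.25, adjusted p = 0.0405), a call lost without control A (0.199), control B (0.12) or knockout B (0.201), and rose at 24 h (log2 2.42, SE 0.25, adjusted p = 8.26e-05) and 4 wk (log2 3.15, SE 0.25, adjusted p = 3.13e-05).

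Ccl28 (chromosome 13, 119623819 to 119654358), a mucosal ligand of Ccr10 and Ccr3, was the member that moved the other way. Ccl28 under vehicle had 14.3 and 17.6 CPM in knockout, against 19.7 and 24.4 CPM in control. Ccl28 at 24 h had 4.77 and 5.47 CPM in knockout, against 15.0 and 15.4 CPM in control. Ccl28 at 4 wk had 17.1 and 11.5 CPM in knockout, against 26.6 and 20.4 CPM in control. Knockout lay below control in each condition without overlap, and lowest at 24 h. Ccl28 fell at 24 h (log2 -1.57, SE 0.23, adjusted p = 0.000665) and 4 wk (log2 -0.72, SE 0.22, adjusted p = 0.0429), where the call was lost without control A (0.219) or knockout B (0.163), and it did not pass under vehicle (log2 -0.47, adjusted p = 0.307). Scaled to pan-endocrine genes, its 24 h value was log2 0.09 (adjusted p = 0.706). Pan-endocrine markers themselves summed to 5612 and 5606 CPM in knockout at 24 h, against 20182 and 20235 CPM in control. Ccl27a stayed between 0.835 and 2.62 CPM and Ccl27b, a near-identical copy, at or under 0.112 CPM, and neither passed between genotypes. Ccl20, the Ccr6 ligand, was at 0 in all vehicle libraries and reached 0.597 and 0.573 CPM in knockout at 24 h, against 0.0438 and 0 CPM in control, and 0.908 and 0.484 CPM in knockout at 4 wk, against 0 in control. Ccl20 passed at 24 h (ratio 27.9, 95% interval 6.79 to 221.7, adjusted p = 0.0235), a call lost without either knockout library (adjusted p up to 0.0801), and rose at least 21.8-fold at 4 wk (adjusted p = 0.0117).

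Cxcl12 (chromosome 6, 117168535 to 117181368), the stromal ligand of Cxcr4 that retains progenitors and leukocytes in tissue, stood with Ccl21a at the top of the per-kilobase order in knockout at 24 h. Cxcl12 under vehicle had 8.16 and 6.84 CPM in knockout, against 10.9 and 11.3 CPM in control. Cxcl12 at 24 h had 245.2 and 244.1 CPM in knockout, against 28.0 and 28.6 CPM in control. Cxcl12 at 4 wk had 37.7 and 35.7 CPM in knockout, against 14.6 and 13.0 CPM in control. Libraries A and B were close in every group and the genotypes did not overlap. Cxcl12 fell under vehicle (log2 -0.56, SE 0.11, adjusted p = 0.0132), a call lost without control A (0.0614), control B (0.0934) or knockout B (0.0799), and rose at 24 h (log2 3.11, SE 0.12, adjusted p = 1.02e-06) and 4 wk (log2 1.41, SE 0.11, adjusted p = 2.98e-05). The estimated shares of its transcripts differed at 24 h. The 1878-base transcript made up 74.0% and 76.0% of Cxcl12 per length in knockout, against 57.5% and 56.4% in control. The 5670-base transcript made up 5.5% and 5.2% in knockout, against 12% and 17% in control, and these shares were not tested. Such estimates can differ between libraries of a group: in control under vehicle the 3173-base transcript made up 36.2% in A and 0.0% in B. Fibroblast and stellate markers, 8 of 8 detected in every group, summed to 1157 and 1150 CPM in knockout at 24 h against 476.2 and 478.6 in control, and to 408.8 and 431.1 at 4 wk against 198.5 and 206.5, and their part in the result was not tested.

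Cxcl16 and Cx3cl1 are made as membrane-anchored proteins and can be shed. Cxcl16 (chromosome 11, 70454234 to 70459984), the Cxcr6 ligand, overlaps Zmynd15 on the other strand in 22.5% of its exon bases. Cxcl16 under vehicle had 3.97 and 4.37 CPM in knockout, against 4.62 and 4.85 CPM in control. Cxcl16 at 24 h had 26.4 and 29.0 CPM in knockout, against 6.73 and 8.32 CPM in control. Cxcl16 at 4 wk had 17.6 and 20.9 CPM in knockout, against 5.69 and 6.87 CPM in control. Cxcl16 rose at 24 h (log2 1.88, SE 0.17, adjusted p = 3.63e-05) and 4 wk (log2 1.61, SE 0.16, adjusted p = 0.00012) and did not pass under vehicle (adjusted p = 0.675). Cx3cl1, fractalkine (chromosome 8, 94772180 to 94782426), which beta cells and neurons make and Cx3cr1-positive macrophages sense, had 15.2 and 11.3 CPM in knockout under vehicle, against 10.2 and 8.64 CPM in control. Cx3cl1 at 24 h had 8.17 and 9.36 CPM in knockout, against 12.9 and 15.4 CPM in control. Cx3cl1 at 4 wk had 23.7 and 37.0 CPM in knockout, against 11.0 and 14.8 CPM in control. Knockout lay below control at 24 h and above it under vehicle and at 4 wk. Cx3cl1 rose at 4 wk (log2 1.23, SE 0.26, adjusted p = 0.00698), a call lost without control A (0.0542), and did not pass under vehicle (adjusted p = 0.353) or at 24 h (log2 -0.69, adjusted p = 0.0566). Xcl1, the Xcr1 ligand of T and natural killer cells, overlaps Gm20743 on the other strand in 16.1% of its exon bases. Xcl1 had 1.65 and 1.2 CPM in knockout at 24 h and 0.532 and 0.289 at 4 wk, against 0 in control at both times, and rose at least 41.9-fold (adjusted p = 0.00461) and at least 12.9-fold (adjusted p = 0.0156, and 0.0504 without control A). Xcl1 passed the low-count filter only through those knockout libraries. Dendritic cell markers, 8 of 8 with counts, summed to 411.9 and 423.0 CPM in knockout at 24 h, against 48.4 and 49.9 CPM in control, and to 204.2 and 231.5 CPM at 4 wk, against 52.4 and 58.7 CPM, and their part in the Xcl1 and Ccl22 values was not tested.

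**Figure D4:**
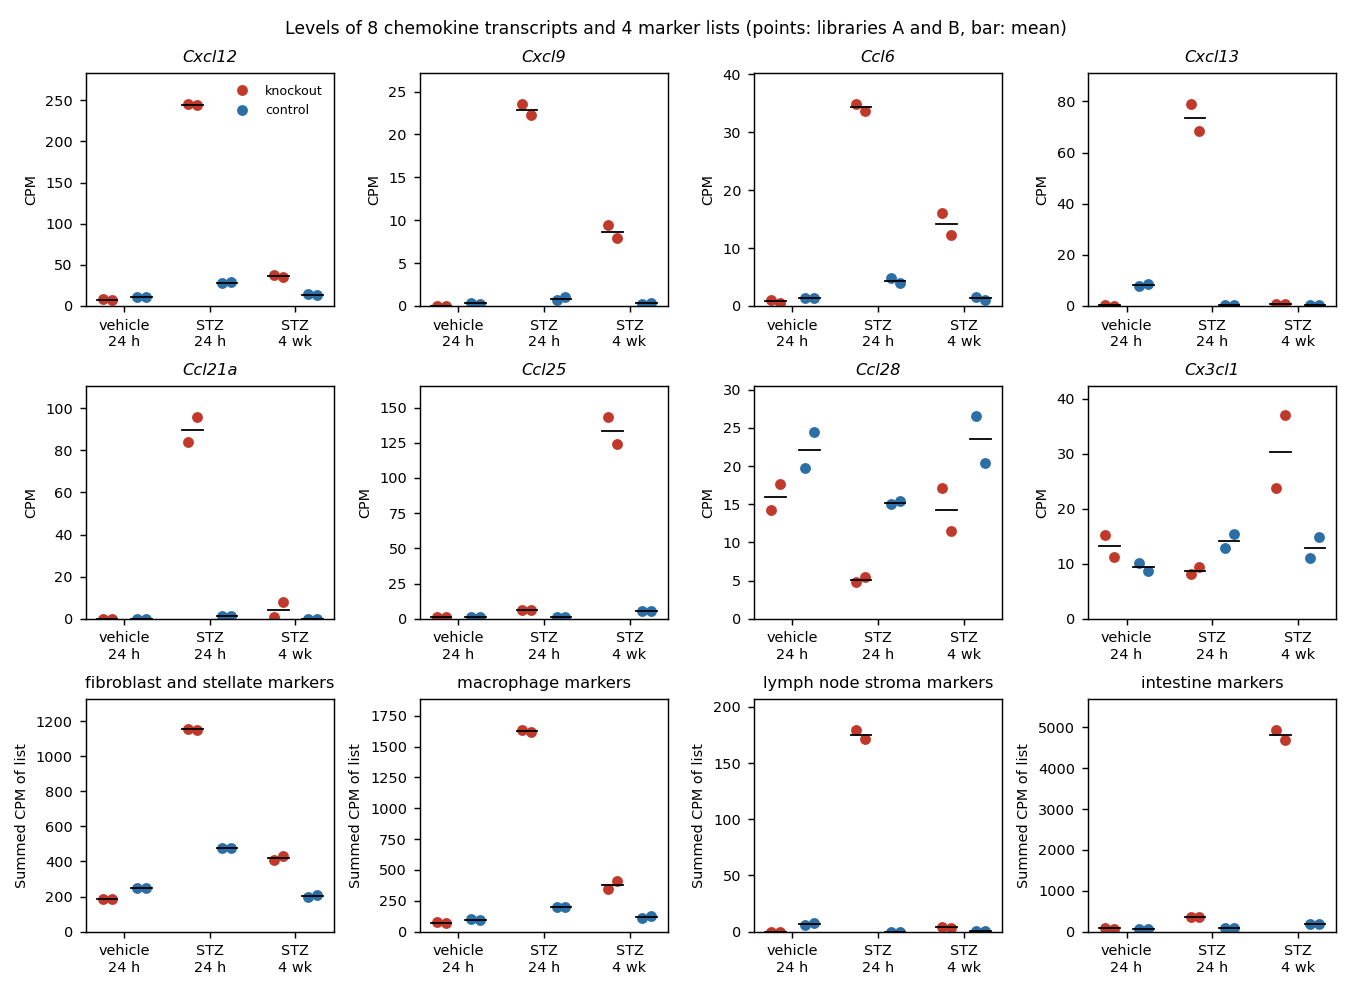
CPM per library (points A and B, bar at the mean, groups with knockout left of control in each condition) of 8 members, beside the summed CPM of 4 marker lists: fibroblast and stellate, macrophage, lymph node stroma and intestine. Cxcl13 and Ccl21a peak with the lymph node list in knockout at 24 h (179.2 and 171.1 CPM), and Ccl25 with the intestine list in knockout at 4 wk (4936 and 4704 CPM).

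In control islets, STZ moved fewer members than in knockout. At 24 h against vehicle, 9 of 35 tested rose, a larger share than the 5.41% higher among all genes. The 1 that fell is near the 2.15% lower among all genes. Those that rose were Ccl21b, Ccl21c, Ccl24, Ccl6, Ccl8, Ccl9, Cxcl12, Cxcl16 and Cxcl9, and Cxcl13 fell (log2 -4.42, SE 0.46, adjusted p = 0.00036). Cxcl12 had the smallest adjusted p of those that rose (log2 1.35, SE 0.11, adjusted p = 7.64e-05), and Ccl21b rose at least 255.4-fold (adjusted p = 8.23e-05). Several of these calls were lost in fits that left out 1 library, where 1 group is down to 1 library. Ccl8, Ccl9, Ccl21c and Cxcl16 were lost without any one of the 4 libraries (highest adjusted p 0.227, 0.15, 0.162 and 0.297), and Cxcl9 without vehicle A, vehicle B or STZ B (0.0727, 0.145 and 0.119). Without vehicle A or STZ A 6 calls were left, without vehicle B or STZ B 5, and a fit of only these libraries called 16. Scaled to macrophage markers (median -0.98), 6 members were higher and 8 lower. At 4 wk against vehicle in control, 2 of 35 tested rose, Ccl25 and Ccl21b, a share near the 4.98% higher among all genes. Another 5 fell, Cxcl13, Ccl3, Cxcl1, Ccl11 and Cxcl2, beside 4.01% lower among all genes. Ccl25 had 5.67 and 5.64 CPM at 4 wk, against 1.44 and 1.46 CPM under vehicle (log2 1.97, SE 0.11, adjusted p = 1.52e-05). Cxcl13 fell (log2 -4.57, SE 0.47, adjusted p = 0.000332), with control vehicle holding 7.97 and 8.51 CPM beside the lymph node stroma list at 6.32 and 7.49 CPM. Ccl11, Ccl3, Cxcl1, Cxcl2 and Ccl21b lost their calls without single libraries (highest adjusted p 0.141, 0.0662, 0.0579, 0.122 and 0.158): Ccl21b and Cxcl2 without any of the 4, Ccl11 without vehicle A, vehicle B or STZ B, Ccl3 without vehicle A or STZ B, and Cxcl1 without either vehicle library. Without vehicle A, vehicle B or STZ B 3 calls were left, and without STZ A 5. A fit of only these libraries called 3. Total-count scaling (median 0.41) gave 6 higher and 4 lower, and pan-endocrine scaling (median -0.20) gave 1 higher and 6 lower.

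In knockout islets, nearly the whole tested family moved at 24 h. Against vehicle, 31 members rose and 1, Ccl28, fell, beside 30.1% higher and 26.2% lower among all genes, and Ccl27a, Cx3cl1 and Cxcl15 did not pass. Of the 29 members that passed the filter through other libraries too, 26 rose and 1 fell. Ccl21a rose at least 2907-fold (adjusted p = 0.000434), Ccl21b at least 838.6-fold (adjusted p = 6.64e-06) and Cxcl9 at least 739.9-fold (adjusted p = 5.49e-07). Cxcl12 rose by log2 5.03 (SE 0.13, adjusted p = 2.13e-08) and Cxcl13 by log2 8.49 (SE 0.55, adjusted p = 2.73e-06). Scaled to macrophage markers (median -4.25), 14 were higher and 8 lower, with Cxcl12 among the higher and Ccl25, Cxcl16, Ccl11, Cx3cl1 and Ccl28 among the lower. At 4 wk against vehicle, 26 rose and 0 fell, beside 24.1% higher and 11.7% lower among all genes, and of the 29 members 21 rose. At an unadjusted p under 0.05, 0 members were lower, and DESeq2's Wald test called 0 lower. Ccl25 rose most clearly (log2 7.09, SE 0.14, adjusted p = 5.41e-09), followed by Cxcl12 (log2 2.29, SE 0.12, adjusted p = 8.89e-07) and Cxcl9, at least 277.9-fold (adjusted p = 1.4e-06). Macrophage scaling (median -2.23) gave 14 higher and 4 lower. The 4 wk calls of Ccl19, Ccl8, Cx3cl1 and Cxcl13 were lost without a single library: knockout vehicle B or STZ 4 wk B for Ccl19 (0.0714 and 0.0526), knockout vehicle A for Ccl8 (0.0836), and knockout vehicle B for Cx3cl1 (0.0515) and Cxcl13 (0.0799). Among the low members, Ccl17 (0.0786 to 0.122) and Ccl27b (0.103 to 0.135) were lost without any single one of the 4 libraries, and Ccl21c without knockout vehicle A, knockout vehicle B or STZ 4 wk B (up to 0.0667). At 24 h, Ccl27b was lost without any single one of the 4 libraries (0.052 to 0.078), Ccl17 without STZ A (0.0533) and Cxcl2 without STZ B (0.0799).

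The interaction asks whether the STZ effect differed between genotypes, taking knockout's change minus control's change. At 24 h it was higher in 22 members and lower in 2, Ccl28 and Cx3cl1, beside 21.1% higher and 16.6% lower among all genes, and of the 29 members it was higher in 18 and lower in 2. The clearest were Cxcl12 (log2 3.68, SE 0.16, adjusted p = 1.05e-06), Ccl25 (log2 3.11, SE 0.16, adjusted p = 2.29e-06) and Cxcl13 (log2 12.9, SE 0.72, adjusted p = 3.64e-06). For Cxcl13 the genotypes moved in opposite directions, since it rose in knockout and fell in control. The interactions of Ccl28 (log2 -1.1, SE 0.32, adjusted p = 0.0242) and Cx3cl1 (log2 -1.19, SE 0.36, adjusted p = 0.0299) did not pass in every fit with 1 library left out. That of Ccl28 was lost without any 1 of 5 libraries, at log2 -0.94 to -1.12. That of Cx3cl1 was lost without any 1 of 6, at log2 -0.95 to -1.31. Scaled to macrophage markers (median -3.26), 7 were higher and 5 lower, and among members called under either scaling Ccl11, Ccl25, Ccl9 and Cxcl16 changed sign (log2 -0.05, -0.13, -0.24 and -1.19). At 4 wk the interaction was higher in 20 members and lower in 0, beside 18.7% higher and 7.35% lower among all genes, and of the 29 members it was higher in 16. At an unadjusted p under 0.05, 0 members were lower, and DESeq2's Wald test called 0 lower. Ccl25 led (log2 5.12, SE 0.16, adjusted p = 2.37e-07), with Cxcl12 (log2 1.97, SE 0.16, adjusted p = 2.95e-05) and Cxcl14 (log2 4.14, SE 0.35, adjusted p = 4.28e-05) after it. Macrophage scaling (median -2.06) gave 15 higher and 3 lower at 4 wk. Where all 4 vehicle libraries had 0 counts, as for Ccl21a, Ccl21b, Ccl24 and Ccl20, the interaction could not be estimated and its adjusted p was 1.

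The receptors show the other side of the pathway. Of 23 chemokine receptor genes listed, 21 were tested. Ccr4, at most 0.0653 CPM outside the knockout STZ libraries, passed the low-count filter only through them, and the counts below include it. At 24 h 19 were higher in knockout and 0 lower, beside the 23.7% and 19.4% of all genes. The split became 8 higher and 5 lower when scaled to macrophage markers. That scaling put the median of all genes below 0 here and at 4 wk, so its splits do not describe the receptors alone. Cxcr4, the Cxcl12 receptor, had 57.0 and 52.8 CPM in knockout, against 3.38 and 3.1 CPM in control (log2 4.08, SE 0.15, adjusted p = 7e-07). Xcr1, the dendritic-cell receptor of Xcl1, had 6.01 and 6.3 CPM in knockout, against 0.123 and 0.0881 CPM in control (log2 5.86, SE 0.31, adjusted p = 3.32e-06). Ccr9, the Ccl25 receptor of gut-homing T cells, had 4.7 and 3.33 CPM in knockout, against 0.0789 and 0.0881 CPM in control (log2 5.57, SE 0.38, adjusted p = 1.07e-05). At 4 wk 15 receptors were higher in knockout and 0 lower, beside 19.9% and 7.89% of all genes (6 and 7 when scaled to macrophage markers). Ccr9 had 7.59 and 5.19 CPM in knockout at 4 wk, against 0.222 and 0.262 CPM in control (log2 4.71, SE 0.35, adjusted p = 2.07e-05), beside its ligand Ccl25. Ccr1 had 13.1 and 10.2 CPM in knockout at 4 wk, against 1.08 and 0.808 CPM in control (log2 3.62, SE 0.35, adjusted p = 9.63e-05), and Xcr1 had 1.19 and 1.07 CPM in knockout, against 0.288 and 0.182 CPM in control (log2 2.27, SE 0.27, adjusted p = 0.000293). Under vehicle 5 receptors were lower in knockout and 0 higher, beside 7.68% and 1.96% of all genes (4 and 4 under total-count scaling). Ackr3, the scavenging Cxcl12 receptor, had 3.55 and 3.35 CPM in knockout, against 6.26 and 7.14 CPM in control (log2 -0.96, SE 0.15, adjusted p = 0.00427). Ccr6, the Ccl20 receptor, was at 0 in both knockout libraries, against 0.359 and 0.239 CPM in control (at least 9.7-fold lower, adjusted p = 0.00614). Cxcr5, the Cxcl13 receptor, had 0.0361 and 0.049 CPM in knockout, against 0.881 and 0.797 CPM in control (log2 -4.28, adjusted p = 0.0116), a call lost without control A, knockout A or knockout B (adjusted p up to 0.0861).

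Inducers of chemokine transcription and NF-kB pathway genes moved in part with the ligands. Of 18 listed, 16 were tested. Ifng and Il17a had 0 counts in every vehicle and every control group. Whichever of these was tested passed the low-count filter only through knockout STZ libraries, and the counts below include it. At 24 h 11 were higher in knockout and 0 lower, beside 23.7% and 19.4% of all genes. The split became 1 higher and 8 lower when scaled to macrophage markers. That scaling put the median of all genes below 0 here and at 4 wk, so its splits do not describe this list alone. Il33, a stromal alarmin gene, had 91.9 and 84.5 CPM in knockout, against 2.31 and 1.78 CPM in control (log2 5.43, SE 0.38, adjusted p = 1.12e-05). Irf7, an interferon-induced regulator, had 27.3 and 31.7 CPM in knockout, against 3.73 and 4.15 CPM in control (log2 2.91, SE 0.29, adjusted p = 7.81e-05). Both passed without any single library of the comparison. At 4 wk 8 were higher in knockout and 0 lower, beside 19.9% and 7.89% of all genes (2 and 7 when scaled to macrophage markers), and Il33 had 25.8 and 20.9 CPM in knockout, against 0.706 and 0.313 CPM in control (log2 5.52, SE 0.39, adjusted p = 1.58e-05). Irf7 had 14.7 and 23.1 CPM in knockout at 4 wk, against 1.52 and 2.43 CPM in control (log2 3.25, SE 0.3, adjusted p = 6.81e-05). Under vehicle 2 were lower in knockout and 0 higher, a share near the 7.68% of all genes that were lower (1 and 4 under total-count scaling). These were Il33, at 0.418 and 0.548 CPM in knockout, against 2.36 and 3.41 CPM in control (log2 -2.58, SE 0.36, adjusted p = 0.00193), and Nfkbia, the NF-kB inhibitor gene, at 19.6 and 21.6 CPM in knockout, against 29.6 and 29.5 CPM in control (log2 -0.52, adjusted p = 0.0126). The Nfkbia call was lost without control A, control B or knockout A (adjusted p up to 0.083). Ifnb1 had 0 counts in every group. Of the chemokine-related platelet and other ligands outside the symbol pattern, Cklf rose at 24 h (log2 0.98, SE 0.21, adjusted p = 0.0047) and Ppbp rose at least 55.6-fold (adjusted p = 0.00995). Ppbp had 2.17 and 1.62 CPM in knockout at 24 h and at most 0.0735 CPM in any other library. It passed the low-count filter only through those knockout libraries, where it is high.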

How the data were processed

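The deposited values are estimated counts (expected counts) per transcript and gene that the authors made with StringTie 1.3.6 (-e and --rf, a stranded setting) on the UCSC RefSeq annotation of mm10, per the file headers (aligner: not given in the sources used here). Libraries were TruSeq Stranded mRNA, per the labels' protocols. Gene counts, already whole, of 24421 genes (35119 transcripts) were used as deposited. In 22203 of 22203 transcripts checked, the count equalled coverage times length over 75 within 1 count, and the commonest covered length of low transcripts was 202 bases, from which 2.69 counts per read pair and the floor of 3 read pairs were set. Intervals and floors cover counting error only.

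The edgeR 4.0.16 quasi-likelihood test (R 4.3.3) was fitted to all 12 libraries with 1 coefficient per group (filterByExpr, 17411 genes; TMM factors 0.825 to 1.21; common dispersion 0.0493; 6 residual degrees of freedom), with Benjamini-Hochberg adjustment over all genes. Levels are counts-per-million values on TMM-scaled totals. Alternatives were DESeq2 1.42.0 size factors and Wald test, total-count, pan-endocrine and macrophage marker scaling, no filter (19624 genes), a replicate block, only the libraries compared, and leaving out each library. Other work used Python 3.11.15, numpy 2.4.6, pandas 2.3.3 and scipy 1.17.1.

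Values per library are given for each member with a mean of at least 2 CPM in a group and an adjusted p under 0.05 in at least 1 of 9 comparisons (23 members), and for the 3 smallest adjusted p-values of the receptor, inducer and related-ligand lists; 1 gene that this rule names is not reported here; low members named beside them were chosen after their values were seen. The members, lists and tests were chosen with earlier results of these data known. Comparisons of the 3 conditions share libraries, so none is independent of the others. Letters A and B share only a letter between groups. Promoters are from RefSeq.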

Additional observations from a re-analysis of the deposited data

Results flagged for a closer look

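The STZ effect differed between knockout and control in a test of the difference itself (edgeR's quasi-likelihood interaction, adjusted over all genes) for 18 members with values per library at 24 h and 14 at 4 wk. Both counts include Ccl22, which passed the low-count filter only through knockout STZ libraries. The signed difference, knockout's change minus control's, was above 0 in every case except Ccl28 and Cx3cl1 at 24 h. For Cxcl13 at 4 wk the changes were log2 1.9 in knockout and -4.57 in control, and for Ccl2 at 4 wk the changes were log2 0.62 in knockout and -1.28 in control.

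At 24 h the adjusted p of the interaction was 1.05e-06 for Cxcl12, 2.29e-06 for Ccl25, 3.64e-06 for Cxcl13 and 8.74e-06 for Cxcl9. It was 9.35e-05 for Cxcl14, 9.59e-05 for Ccl6, 0.000108 for Cxcl1, 0.000153 for Cxcl16 and 0.000167 for Ccl11. It was 0.000353 for Ccl2, 0.000898 for Ccl19, 0.000984 for Ccl22, 0.00138 for Ccl5 and 0.00173 for Ccl9. Ccl22 had 0 counts in control at 24 h and in knockout vehicle, a group that both interactions use, so its interaction values rest on groups at 0. For Cxcl10 it was 0.0075, but 0.697 without control vehicle A, since the other control vehicle library is at 0 counts. For Cxcl5 it was 0.0208, and up to 0.197 without control vehicle B, either control STZ library or either knockout STZ library. For Ccl28 (0.0242) and Cx3cl1 (0.0299) the difference was below 0, and both were lost without single libraries. Without a single library the adjusted p of Ccl28 reached 0.0916 and that of Cx3cl1 0.101.

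At 4 wk the adjusted p was 2.37e-07 for Ccl25, 1.01e-05 for Cxcl9, 2.95e-05 for Cxcl12, 4.28e-05 for Cxcl14 and 7.15e-05 for Ccl6. It was 0.000129 for Cxcl13, 0.000257 for Ccl11, 0.000476 for Cxcl16 and 0.000797 for Cxcl1. It was 0.00317 for Ccl22, 0.0048 for Ccl5 (0.091 without control vehicle A), 0.00964 for Ccl9 and 0.0203 for Cxcl5 (0.108 without control vehicle B). For Ccl2 it was 0.042, and 0.0637 to 0.131 without any single one of 7 of the 8 libraries. Both interactions use the same vehicle libraries, so the lists at 24 h and 4 wk are not independent.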

How the results depend on the processing

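Counts of called members stayed within 1.5 times of those reported under DESeq2 size factors, no filter, the DESeq2 Wald test and total-count scaling. Knockout against control under vehicle (8 calls) moved to 16 with pan-endocrine scaling, 5 with macrophage scaling and 3 with only the libraries compared. With only the libraries compared, STZ 24 h in control (10 calls) moved to 16 and STZ 4 wk in control (7 calls) to 3. The 24 h interaction (24 calls) moved to 12 with macrophage scaling. Leaving out 1 library at a time gave 3 to 6 calls under vehicle, 19 to 21 at 24 h and 16 to 23 at 4 wk between genotypes. It gave 5 to 6 and 30 to 31 for STZ 24 h in control and knockout, 3 to 5 and 21 to 24 for STZ 4 wk, and 17 to 22 and 16 to 19 for the interactions at 24 h and 4 wk. Of 133 calls with values per library, 32 were lost without some single library and 101 were kept.

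The letter used as a replicate block gave 7, 24 and 23 calls between genotypes (vehicle, 24 h, 4 wk), 8 and 32 for STZ 24 h in control and knockout, 7 and 23 for STZ 4 wk, and 24 and 18 for the interactions. Of single-member results 201 of 207 kept their side of the threshold under the block. The correlation of the A against B gap between genotypes was 0.12, 0.05 and 0.48 (vehicle, 24 h, 4 wk). Over all pairs of groups it ran from -0.39 to 0.48, with the 4 wk pair the highest, and the letters are not said to mark a shared animal or day.

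Among results called under either scaling, macrophage scaling turned 33 single-member directions, and the log2 values below are under it. Between genotypes at 24 h they were -1.09 for Ccl11, -1.77 for Ccl21b, -0.39 for Ccl25, -0.85 for Ccl9, -0.13 for Cxcl1, -0.52 for Cxcl14 and -1.06 for Cxcl16. At 4 wk they were -1.24 for Ccl19, -1.31 for Ccl2, -0.31 for Ccl9, -0.54 for Cx3cl1, -0.33 for Cxcl12 and -0.14 for Cxcl16. For STZ 24 h in control they were -0.7 for Cxcl14 and -0.35 for Cxcl16, and in knockout -1.38 for Ccl11, -1.58 for Ccl25, -0.53 for Cxcl14 and -1.54 for Cxcl16. For STZ 4 wk in knockout they were -0.26 for Ccl11, -0.16 for Ccl19, -1.6 for Ccl2, -1.08 for Cx3cl1, -0.3 for Cxcl13 and -0.06 for Cxcl16. For the 24 h interaction they were -0.05 for Ccl11, -0.13 for Ccl25, -0.24 for Ccl9 and -1.19 for Cxcl16, and for that at 4 wk -0.12 for Ccl2, -1.34 for Cx3cl1, -0.07 for Cxcl12 and -0.27 for Cxcl16. Pan-endocrine scaling turned 7: Ccl28 to 0.09 (knockout against control, 24 h), 0.35 and 0.56 (STZ 24 h and 4 wk in knockout) and 0.96 (24 h interaction), and Cx3cl1 to 0.96, 1.37 and 0.86 (knockout against control at 24 h, STZ 24 h in knockout, 24 h interaction). The 24 h interaction of Cxcl10 was 6.87 without control vehicle B and -1.12 without control vehicle A, the other control vehicle library being at 0. The cause of the other changes was not tested. Members at a few read pairs limit what depth can show.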

Other observations

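Summed levels of marker lists not set beside a chemokine are given here. Liver markers summed to 14427 and 13965 CPM in knockout at 24 h, against 4717 and 4819 CPM in control. Stomach markers summed to 0.0577 and 0.0735 CPM in knockout under vehicle, against 244.0 and 223.6 CPM in control, to 12.5 and 11.6 CPM in knockout at 24 h, against 0.754 and 1.06 CPM in control, and were at 0 in all 4 wk libraries. Endothelial markers summed to 557.6 and 576.1 CPM in knockout at 24 h, against 371.4 and 387.8 CPM in control. Ductal markers summed to 533.5 and 528.9 CPM in knockout at 24 h, against 345.0 and 357.2 CPM in control. Their part in the chemokine values was not tested.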
